A study of Mus musculus with 24 samples.

Results

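The collagen genes were followed through 24 Affymetrix whole-genome arrays of sorted mouse mammary cells. Members were all genes whose symbol has the form Col, number, a, number, with the hemidesmosome gene Col17a1 left out, and each gene was read from its probe set of highest mean signal. This gave 41 collagen genes of 18193 genes with a probe set of their own, from 81 collagen probe sets. A low-value filter kept 33 of them among 13485 genes tested: 9 of 11 fibrillar, 8 of 9 basement membrane and 16 of 21 other collagens.

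The study compared a gate used for stem cells with a more differentiated gate, in normal mammary gland and in mammary adenocarcinomas. The tumours were 5 independent adenocarcinomas, named A to E, of C57BL6/J Apc+/1572T mice; this heterozygous germline mutation truncates Apc, a regulator of Wnt signalling. The normal samples were 3 independently isolated gland pools, F to H, of C57BL6/J Apc+/+ mice. From each came 10000 cells of 3 populations: the Lin- cells, from which cells with lineage markers were removed; Lin-CD29+CD24+, the more differentiated gate; and Lin-CD29hiCD24+, the stem cell gate. The last 2 are called the CD29+ and CD29hi gates here. By its label the Lin- sort carries no gate on CD29 or CD24, so it can hold cells of both gates and stromal cells. Each group thus holds 3 normal or 5 tumour arrays. A tumour array stands for 1 tumour and a normal array for a pool of glands, and ages and the lineage markers used are not given in the labels. The labels call the tumours and the gland pools independent. A second round of amplification preceded labelling in all 6 groups.

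Collagens are triple-helical proteins that build the extracellular matrix. Fibrillar collagens, such as types I, III and V, form the cables of connective tissue and are made above all by fibroblasts. Type IV collagen forms the sheet-like network of basement membranes, on which the basal, or myoepithelial, layer of the mammary epithelium rests and to which that layer contributes. The remaining collagens coat fibrils, form fine filaments or span the cell membrane.

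Values are log2 signals as the authors deposited them. Between 37.2% and 41.6% of the values of each array did not exceed 2.83, which is the 40th percentile over all arrays and is named the low band, and array medians ran from 3.26 to 3.41. A group lying in or close to this band has no well measured level, so a log2 difference from it is given as computed and is not a ratio of measured amounts. Genes were called at an adjusted p under 0.05 in limma, with Benjamini-Hochberg adjustment over all 13485 genes. Signals of different genes are not on a common scale and are not compared.

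The labelled populations were set against marker genes before the collagens were read. The mean of 9 basal and myoepithelial markers was 12.9 to 13.2 in the normal CD29hi arrays and 3.42 to 3.72 in the normal CD29+ arrays, and it was 7.65 to 10.4 and 7.31 to 7.92 in the same gates of tumours. The mean of 12 fibroblast markers, of which 10 passed the low-value filter, was 6.17 to 8.45 in normal Lin- arrays. It was 4.93 to 8.66 in tumour Lin- arrays and 2.99 to 5.38 in the other groups. Tumour D had the lowest fibroblast mean among the tumour Lin- arrays. The normal CD29hi array of pool F stood apart in other cell types, where leukocyte markers averaged 7.47 (3.14 in G, 3.26 in H) and endothelial markers 9.23 (6.33 in G, 7.15 in H). For comparisons that hold these arrays, calls lost without tumour D or without this array of pool F are given. Calls gained without them are not all given.

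Across the 6 groups the collagens were lowest in the normal CD29+ gate and most often highest in the normal CD29hi gate. Of 29 genes whose group means spanned more than 1 log2 unit, 24 had their lowest mean in normal CD29+ cells. The highest mean was in normal CD29hi cells for 15 genes, in normal Lin- cells for 6, in tumour CD29hi cells for 3, in tumour CD29+ and tumour Lin- cells for 2 each and in normal CD29+ cells for 1. A group mean over 4 was reached by 10 of the 33 genes in normal CD29+ cells and by 24 to 27 genes in each other group. In these bulk samples fewer cells of a type and less RNA per cell cannot be told apart. All 29 of these genes were called in at least 1 of 10 comparisons. They were picked by the range of the same group means, so these calls are no separate support. Shares of all genes with these lowest and highest groups, or called in any comparison, are not given here. The counts are thus not set against a background and are not read as particular to collagens.

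**Figure D1:**
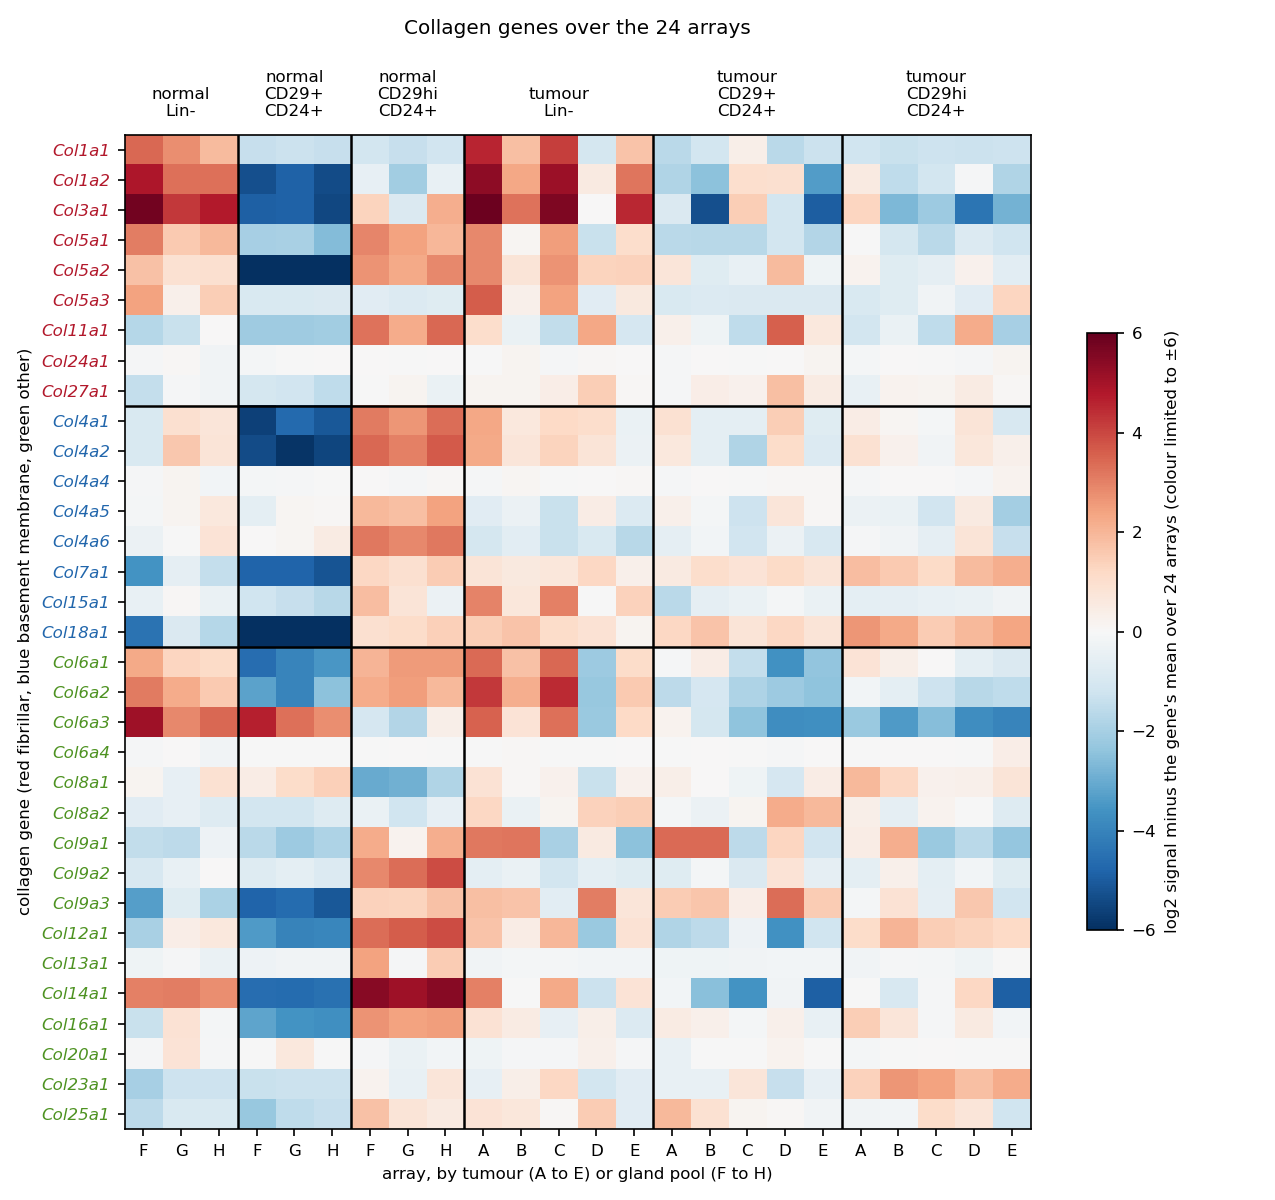
Log2 signal of the 33 collagen genes (rows, by class) on the 24 arrays (columns, by group and by tumour or pool letter), with each gene's mean over all arrays taken off. The normal CD29+ columns are blue for most genes, the normal CD29hi columns are red for most, and the fibrillar genes Col1a1, Col1a2 and Col3a1 are reddest in the Lin- columns.

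In normal glands the CD29hi gate carried far more collagen signal than the CD29+ gate. Of the 33 genes 23 rose and 2 fell from CD29+ to CD29hi, against 21.3% of all genes tested called higher and 25.3% called lower. The rise took in 6 of 9 fibrillar, 7 of 8 basement membrane and 10 of 16 other collagens. The median difference was 3.42 over the 33 genes and -0.03 over all genes. The arrays of both gates did not overlap for 29 genes, against 58.2% of all genes. Without pool F, Col6a3, Col15a1 and Col1a2 missed the threshold (adjusted p 0.0603, 0.0873 and 0.0532), and without its CD29hi array alone Col15a1, Col23a1 and Col27a1 did (0.0541, 0.061 and 0.0774). Without pool H, Col3a1 (0.0644), Col1a2 (0.0558), Col23a1 (0.178) and Col27a1 (0.103) missed it, and Col27a1 and Col23a1 also missed it without F (0.0744 and 0.118) and Col27a1 without G (0.131) or B (0.0505).

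In tumours few genes of any kind were called between the same gates. Col12a1 and Col23a1 rose from CD29+ to CD29hi and the other 31 genes were not called, against 4.19% of all genes called in either direction and 2.25% called higher. The 2 collagens are 6.06% of the 33. The median difference over the 33 genes was 0.07. With tumour and pool letters as a random replicate block 4 collagens were called, the added genes being Col8a1 at 0.999 (adjusted p 0.0316) and Col9a3 at -1.56 (0.0307), and with the letters as fixed terms 5 were called. Without tumour B only Col23a1 was called, since Col12a1 had an adjusted p of 0.0667. Shares of all genes called in these block and leave-out fits are not given here.

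The difference between the gates was itself compared between tumours and normal glands. It was smaller in tumours for 23 of the 33 genes and larger for Col8a1, against 19.8% of all genes called lower and 22.2% called higher. The median of this difference of differences was -3.80 over the collagens and 0.04 over all genes. Calls lost on leaving out a tumour or pool were Col15a1 (without B, C, E, F or G), Col1a2 (B, C, F, G or H), Col9a1 (D, F, G or H), Col3a1 (C, F or H), Col27a1 (G or H), Col13a1 (F) and Col6a2 (G), with adjusted p from 0.0509 to 0.201. With the 3 prime minus 5 prime actin signal, a sign of RNA quality, as a covariate Col1a2 (0.132), Col9a1 (0.0534), Col13a1 (0.0602), Col15a1 (0.214) and Col27a1 (0.237) were not called. Without the CD29hi array of pool F, 20 of the 24 genes were called, and Col15a1, Col1a2, Col3a1 and Col9a1 were not. With the mean of all kept probe sets of a gene Col1a2 (0.0943), Col3a1 (0.102) and Col9a1 (0.114) were not called.

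**Figure D2:**
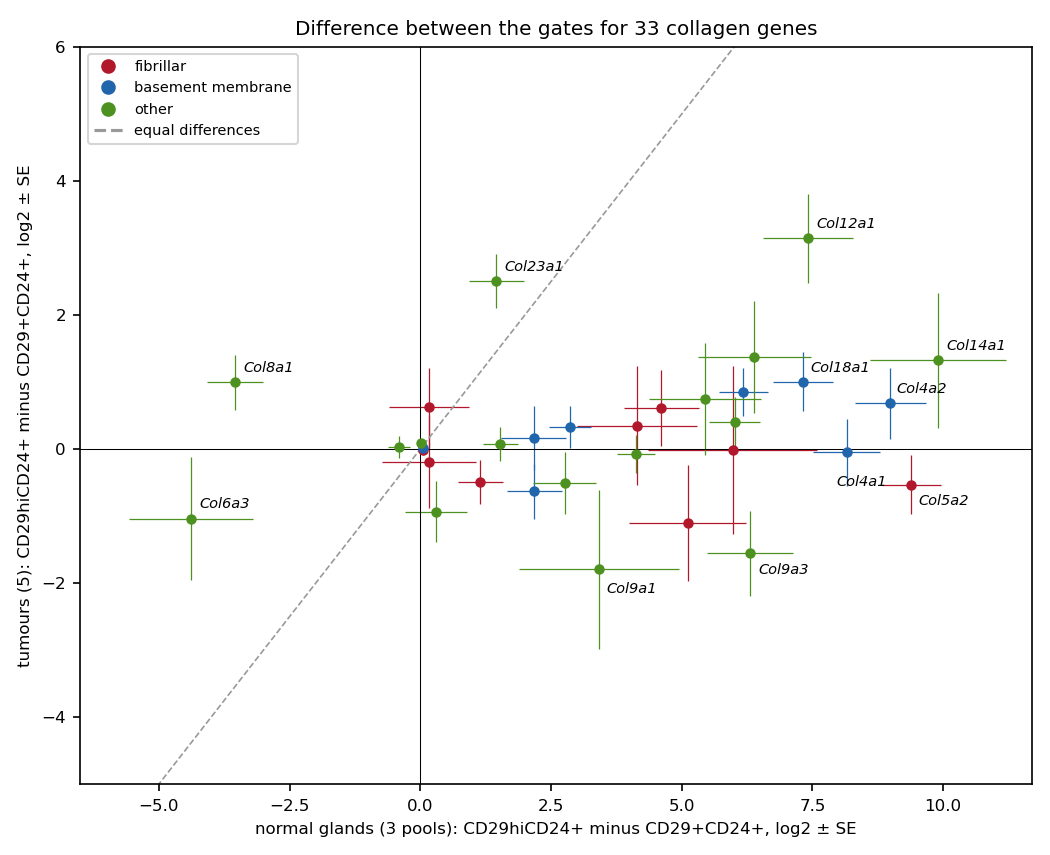
Difference between the CD29hi and CD29+ gates in normal glands (horizontal axis, log2) against the same difference in tumours (vertical axis, log2) for the 33 collagen genes, with standard errors from the limma fit. Most points lie far to the right of zero and close to the horizontal line, so they fall under the dashed line of equal differences, while Col8a1 and Col6a3 lie to the left.

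Tumour cells of the CD29hi gate had less collagen signal than their normal counterpart. Here 13 genes fell and Col8a1 and Col23a1 rose, against 22.9% of all genes called lower and 15.6% higher. The median was -1.43 over the 33 genes and -0.01 over all genes. In the CD29+ gate the direction was the other way, as 14 genes rose in tumours and Col6a3 fell, against 16.4% called higher and 27.1% called lower among all genes, with a median of 1.78. These 2 comparisons share no arrays, but both draw on the same tumours and gland pools, so they are not independent. The collagens that fell in CD29hi and rose in CD29+ cells were Col4a1, Col4a2, Col5a2, Col11a1, Col12a1 and Col16a1. They are 46.2% of the collagens that fell and 42.9% of those that rose. The share of all genes with this opposite pattern is not given here, so it is not read as particular to collagens. In the Lin- sort 8 genes rose in tumours and Col4a6 fell, against 13.9% and 26.6% of all genes.

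Some of these calls were thin. In CD29hi cells Col12a1 missed the threshold without A, E, G or H (adjusted p 0.0528 to 0.0994) and without the CD29hi array of pool F (0.0526). In CD29+ cells Col6a1 missed it without A, B, C, F, G or H (0.0519 to 0.143), Col11a1 without A, E, F, G or H (0.0545 to 0.105) and Col12a1 without B, C, E, G or H (0.0689 to 0.114). The labels number the samples in 3 ranges, and the normal arrays share theirs with tumour E alone; what the ranges stand for is not stated. With that range as a block, Col1a2 (0.0626), Col6a1 (0.151), Col11a1 (0.236), Col12a1 (0.0676) and Col25a1 (0.0737) were not called in CD29+ cells, and Col4a6 was called lower at -1.48 (0.00357). In CD29hi cells the same block lost Col12a1 (0.0978) and added falls of Col9a1 at -4.54 (0.000134), Col6a3 at -3.20 (0.0361), Col6a1 at -3.15 (0.0166) and Col25a1 at -2.05 (0.00426). In Lin- cells it lost Col23a1 (0.110), Col25a1 (0.426) and Col27a1 (0.114), and called Col14a1 at -4.23 (0.00828), Col6a3 at -3.31 (0.0334) and Col24a1 at 0.23 (0.0473). In Lin- cells the count dropped from 9 to 5 without pool F, where Col27a1 (0.333), Col8a2 (0.109), Col23a1 (0.145) and Col25a1 (0.0906) were lost. Other losses there were Col27a1 without B, C or H (0.0548 to 0.069), Col8a2 without A, D, E, G or H (0.0517 to 0.123), Col23a1 without B (0.061), Col25a1 without D (0.054) and Col4a6 without H (0.0984).

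**Figure D3:**
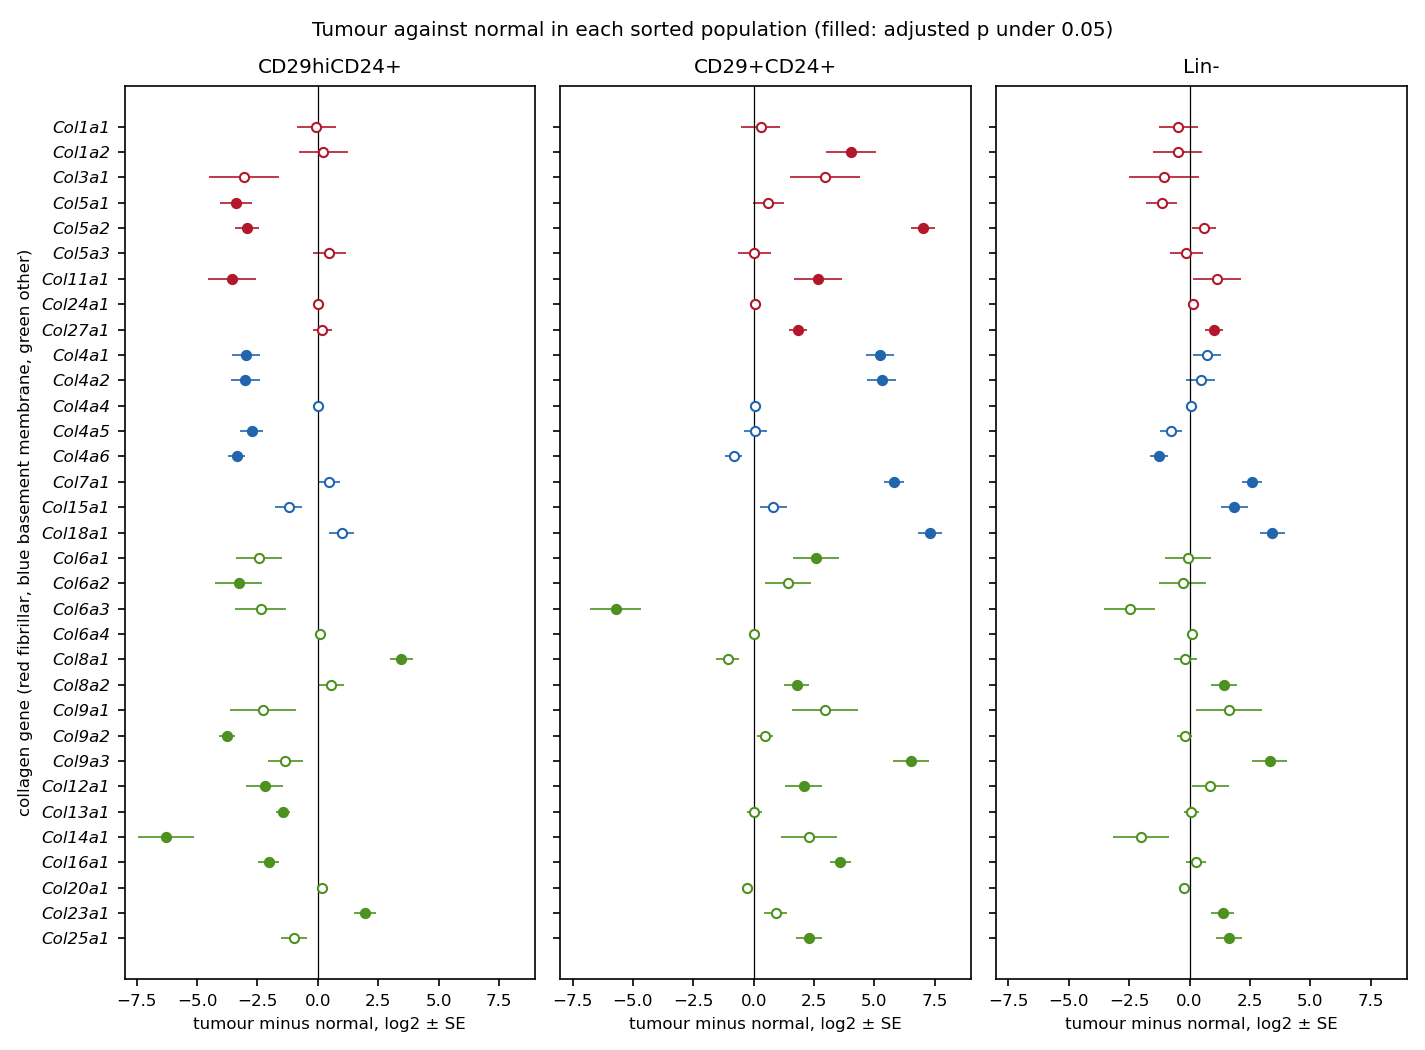
Tumour minus normal log2 difference with its standard error for each collagen gene in CD29hi, CD29+ and Lin- cells; filled points have an adjusted p under 0.05. Filled points lie left of zero for 13 genes in CD29hi cells and right of zero for 14 genes in CD29+ cells.

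Among the fibrillar collagens, the major chains of types I and III were highest in the Lin- sort. Col1a1 and Col1a2 encode the chains of type I collagen, the main fibril of connective tissue, and Col3a1 encodes type III, its partner in soft tissue. Col1a1 measured 7.82, 7.17 and 6.31 in normal Lin- arrays of pools F to H and 8.98, 6.18, 8.56, 3.33 and 6.09 in tumours A to E. In both gates it lay between 2.76 and 3.29 on every array but that of tumour C in the CD29+ gate, at 4.73. The Lin- arrays were thus high except for tumour D, which lay close to the range of the gates. Normal CD29hi minus normal Lin- was -3.91 ± 0.90 (SE) for Col1a1 (adjusted p 0.00156), and the same difference in tumours was -3.49 ± 0.70 (0.00323).

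Col1a2 measured 2.55, 2.98 and 2.46 in normal CD29+ cells, all near the low band, and 7.33, 5.74 and 7.35 in normal CD29hi cells. In tumour CD29+ cells it ranged from 4.46 to 8.84, and in tumour CD29hi cells from 6.02 to 8.37. The normal CD29+ arrays lay below all the others. The tumour rise in the CD29+ gate was 4.02 ± 1.02 (adjusted p 0.00291), while in the CD29hi gate the tumour difference of 0.23 ± 1.02 was not called. Normal and tumour Lin- arrays overlapped, at 11.11 to 12.68 and 8.38 to 13.19.

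Col3a1 measured 3.23, 3.27 and 2.66 in normal CD29+ cells and 9.47, 7.29 and 10.33 in normal CD29hi cells, a rise of 5.97 ± 1.62 (adjusted p 0.00443). A second kept probe set of Col3a1 rose by 1.23. In tumours the CD29+ arrays read 7.26, 2.87, 9.64, 7.02 and 3.21 for A to E and the CD29hi arrays 9.45, 5.43, 5.96, 3.77 and 5.32. Tumour arrays were scattered over nearly the whole range, and which gate was higher differed from tumour to tumour. The normal Lin- arrays, at 13.94, 12.37 and 12.89, were above every normal gate array.

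Col5a2, a chain of type V collagen, which sits within type I fibrils and limits their width, measured 2.503, 2.70 and 2.65 in normal CD29+ cells and 12.08, 11.66 and 12.27 in normal CD29hi cells. Tumour CD29+ arrays read 10.10, 8.65, 8.91, 11.28 and 9.14 and tumour CD29hi arrays 9.57, 8.66, 8.82, 9.63 and 8.74. The tumour gates overlapped each other and lay between the normal gates. The gate difference of 9.39 ± 0.56 in normal glands (adjusted p 3.56e-11) stood against -0.53 ± 0.44 in tumours, and the difference between them was -9.92 ± 0.71 (1.27e-09). Its partner chain Col5a1 was 4.61 ± 0.73 higher in the normal CD29hi than CD29+ gate and fell by 3.39 ± 0.65 in tumour CD29hi cells, while Col5a3, with its highest mean in normal Lin- cells as Col1a1 had, was called in 1 comparison alone, normal CD29hi minus Lin-, at -2.13 ± 0.76 (0.0295), a call lost without F (0.232), without H (0.130) or without the CD29hi array of pool F (0.0615).

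Col11a1, a chain of the cartilage fibril type XI, measured 3.92, 3.94 and 3.98 in normal CD29+ cells and 9.33, 8.31 and 9.52 in normal CD29hi cells. It fell by 3.56 ± 0.9999 in tumour CD29hi cells (adjusted p 0.00743). Tumour D was high in every population, at 8.41, 9.63 and 8.30 in Lin-, CD29+ and CD29hi cells, against 4.05 to 7.12 in the other tumours. The fibrillar gene Col27a1 rose by 1.83 ± 0.39 in tumour CD29+ cells (0.000555), and Col24a1 was called in no comparison (adjusted p 0.248 or more).

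**Figure D4:**
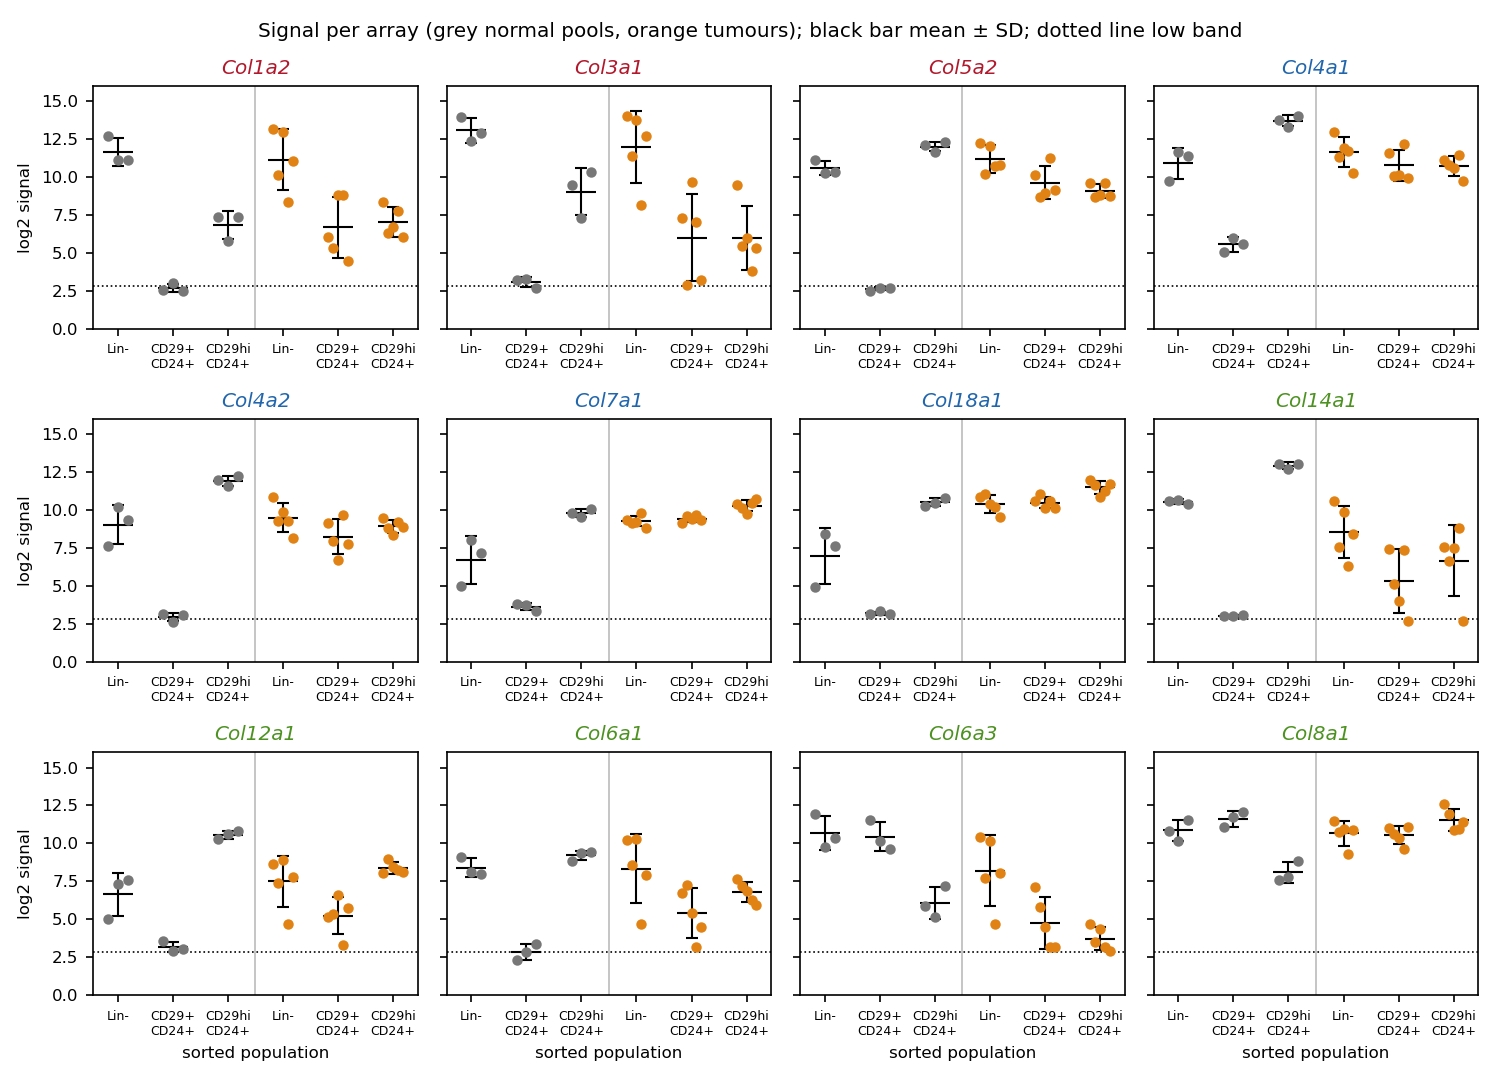
Log2 signal of 12 collagen genes on each array, by sorted population, with the group mean and standard deviation; grey points are normal pools, orange points tumours, and the dotted line is the low band at 2.83. Normal CD29+ arrays lie at or near the dotted line for Col1a2, Col3a1, Col5a2, Col4a2, Col18a1, Col14a1, Col12a1 and Col6a1. Col6a3 and Col8a1 are high there and lower in normal CD29hi arrays.

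The basement membrane collagens were led by Col4a1 and Col4a2, which encode the chains of the common type IV network. The pair lies head to head on mouse chromosome 8, with annotated starts 21 bases apart on opposite strands, and their promoter windows are shown because the signals of both genes followed each other closely over the arrays. The windows run from 250 bases before to 50 after the start (RefSeq, GRCm38.p6), Col4a1 at chr8:11312777-11313076 on the minus strand and Col4a2 at chr8:11312555-11312854 on the plus strand, and share 78 bases. Capitals mark matches to CCAAT and to GGGCGG, searched on both strands.
Col4a1: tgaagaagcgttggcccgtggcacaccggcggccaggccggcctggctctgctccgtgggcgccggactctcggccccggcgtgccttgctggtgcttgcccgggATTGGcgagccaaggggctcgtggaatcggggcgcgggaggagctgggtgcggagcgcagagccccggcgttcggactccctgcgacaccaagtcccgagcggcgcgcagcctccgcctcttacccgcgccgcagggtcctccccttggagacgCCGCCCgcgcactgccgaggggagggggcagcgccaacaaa
Col4a2: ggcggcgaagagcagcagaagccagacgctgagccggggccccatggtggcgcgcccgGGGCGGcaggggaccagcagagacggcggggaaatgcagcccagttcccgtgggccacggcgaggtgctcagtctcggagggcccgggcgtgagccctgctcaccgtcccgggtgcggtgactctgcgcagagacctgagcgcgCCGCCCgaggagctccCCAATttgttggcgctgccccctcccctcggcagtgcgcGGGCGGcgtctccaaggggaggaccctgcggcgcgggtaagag

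Each window held 1 CCAAT match, and the Col4a1 and Col4a2 windows held 1 and 3 GGGCGG matches. The Col4a1 match to GGGCGG is the same site as 1 of the 3 in Col4a2, read on the other strand within the 78 shared bases. Both windows enter the counts below. Promoters were matched for 32 of the 41 members in 35 windows. GGGCGG was found in 22 of these, or 62.9%, against 35.7% of all 32851 promoter windows of this length, CCAAT in 34.3% against 37.4%, TATAAA in 11.4% against 13.6% and TGANTCA in 2.86% against 7.81%. These are matches of letters and were not tested.

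Col4a1 measured 5.06, 5.99 and 5.6003 in normal CD29+ cells and 13.77, 13.33 and 14.02 in normal CD29hi cells. Tumours A to E read 11.57, 10.07, 10.10, 12.16 and 9.95 in the CD29+ gate and 11.09, 10.79, 10.56, 11.44 and 9.70 in the CD29hi gate. The tumour gates overlapped, above all normal CD29+ arrays and below all normal CD29hi arrays. From normal to tumour Col4a1 rose by 5.22 ± 0.58 in CD29+ cells (adjusted p 2.46e-07) and fell 7.94-fold in CD29hi cells (log2 difference -2.99 ± 0.58, 0.00032).

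Col4a2 was likewise lowest in normal CD29+ and highest in normal CD29hi cells, from 2.96 ± 0.27 (SD, n = 3) in normal CD29+ cells to 11.9 ± 0.33 in normal CD29hi cells, and 8.26 ± 1.17 and 8.94 ± 0.43 (SD, n = 5) in the tumour gates. Over the 24 arrays Col4a1 and Col4a2 had a Pearson r of 0.981, and of 0.857 with group means removed. Arrays of 1 tumour or pool share their source, so this is a description. In the Lin- sort neither gene was called between tumours and normal glands.

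Col4a5 and Col4a6, the chains of another type IV network, found beneath smooth muscle and some epithelia, followed a different course. Col4a6 measured 8.15, 8.24 and 8.60 in normal CD29+ cells, well over the low band, and 11.28, 11.01 and 11.30 in normal CD29hi cells. Its tumour CD29hi arrays read 8.05, 7.91, 7.57, 8.91 and 6.73. Tumour CD29hi arrays thus spread around the normal CD29+ arrays, and all lay below the normal CD29hi arrays. Col4a6 fell by 3.36 ± 0.36 in tumour CD29hi cells (adjusted p 3.48e-07), and Col4a5 fell by 2.74 ± 0.47 (0.000104). In tumour CD29+ cells their differences of -0.83 ± 0.36 and 0.07 ± 0.47 were not called. Col4a6 alone among the collagens fell in tumour Lin- cells, at -1.26 ± 0.36, a call lost without pool H (0.0984).

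Col7a1 and Col18a1 stayed high in tumours in all 3 populations. Col7a1 encodes the anchoring fibrils that tie basement membrane to stroma, and Col18a1 encodes a basement membrane proteoglycan whose end fragment is endostatin. Col7a1 measured 3.78, 3.75 and 3.36 in normal CD29+ cells, 9.82, 9.53 and 10.08 in normal CD29hi cells, and 8.85 to 10.74 on all 15 tumour arrays. Col18a1 measured 3.13, 3.33 and 3.15 in normal CD29+ cells, 10.29, 10.47 and 10.80 in normal CD29hi cells and 9.52 to 12.01 on the tumour arrays. Normal Lin- arrays read 4.99, 8.003 and 7.16 for Col7a1 and 4.91, 8.46 and 7.63 for Col18a1, all of them between the normal CD29+ arrays and the tumour arrays.

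In tumour CD29+ cells Col18a1 rose by 7.30 ± 0.51 (adjusted p 2.83e-10) and Col7a1 by 5.81 ± 0.42 (3.87e-10). In tumour Lin- cells they rose by 3.42 ± 0.51 (1.73e-05) and 2.57 ± 0.42 (4.37e-05). In CD29hi cells the tumour differences of 0.99 ± 0.51 and 0.49 ± 0.42 were not called. The related Col15a1 rose in tumour Lin- cells by 1.85 ± 0.55 (0.0107), where tumours A and C, at 7.79 and 7.84, lay highest.

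The basal and myoepithelial list, like 7 of 8 basement membrane collagens, was higher in normal CD29hi than in normal CD29+ cells. The 2 did not move alike throughout. Col4a5 and Col4a6 averaged 11.4 and 8.33 in normal CD29+ cells, and Col7a1 and Col18a1 were not called lower in tumour CD29hi cells. All 9 basal and myoepithelial markers had a mean over the low band in normal CD29hi cells, and 6 of 9 in normal CD29+ cells, where Krt5 averaged 2.90 and Krt14 3.97. In tumour CD29+ cells the list mean was 7.31 to 7.92, and its members differed. Krt5, Krt14 and Trp63 averaged 13.9, 14.6 and 13.03 there, whereas the contractile genes Myh11, Cnn1, Oxtr and Tagln averaged 3.24, 2.30, 2.67 and 4.34, against 3.28, 2.17, 2.57 and 3.91 in normal CD29+ cells. Mylk and Acta2, also contractile, averaged 5.83 and 8.54 against 3.31 and 7.30. Endothelial markers were also up in the normal CD29hi gate, at 6.33 to 9.23 over the 3 pools against 3.12 to 3.30 in normal CD29+ and 2.77 to 3.64 in tumour CD29hi cells, and Cdh5 averaged 7.25 there against 2.38 and 2.52. Pericyte markers ran from 4.57 to 5.16 there and from 3.42 to 3.59 in the normal CD29+ gate. The part of these cells in the result was not tested. The log2 signal of the actin control probes at the 3 prime end minus that at the 5 prime end, a sign of RNA quality, averaged 2.53 in normal CD29hi and 1.61 in normal CD29+ cells, and 2.03 and 2.06 in the tumour gates. With it as a covariate 23 collagens were called between the normal gates, where 25 were called without it, and Col15a1, Col27a1 and Col6a3 were lost (adjusted p 0.0872, 0.543 and 0.102).

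Among the remaining collagens Col14a1 had the largest difference between the normal gates. Col14a1, which coats type I fibrils, measured 3.01, 3.0003 and 3.10 in normal CD29+ cells and 13.07, 12.70 and 13.06 in normal CD29hi cells, with normal Lin- arrays at 10.63, 10.67 and 10.39. Tumour CD29hi arrays read 7.58, 6.62, 7.52, 8.83 and 2.71 for A to E. The normal groups were tight and apart, whereas the tumours were spread and tumour E lay in the low band in both gates. Col14a1 fell by 6.29 ± 1.16 in tumour CD29hi cells (adjusted p 0.000213), and its gate difference of 9.90 ± 1.30 in normal glands (2.68e-06) stood against 1.32 ± 1.01 in tumours.

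Col12a1, a related fibril-associated collagen, kept a called gate difference in tumours. It measured 3.55, 2.91 and 3.01 in normal CD29+ cells and 10.31, 10.60 and 10.84 in normal CD29hi cells. Tumours read 5.13, 5.36, 6.63, 3.29 and 5.77 in CD29+ cells and 8.06, 9.002, 8.43, 8.27 and 8.12 in CD29hi cells. The gates were apart in both tissues, and all 5 tumours were higher in the CD29hi gate, by 1.80 to 4.98. The tumour difference was 3.14 ± 0.67 (adjusted p 0.0101), against 7.42 ± 0.86 in normal glands (5.25e-07).

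Col23a1, a transmembrane collagen, measured 5.44, 4.81 and 5.97 in normal CD29hi cells and 6.63, 7.92, 7.69, 7.08 and 7.47 in tumour CD29hi cells. No other group exceeded 6.52 on any array, so the tumour CD29hi arrays stood above all others. It was 2.501 ± 0.40 higher in the CD29hi than the CD29+ gate of tumours (adjusted p 0.00135), a call kept under each alternative run, and 2.23 ± 0.40 higher than in tumour Lin- cells (0.00138). Between normal and tumour CD29hi cells it rose by 1.95 ± 0.46 (0.00219).

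Col8a1, a short-chain collagen of vessel walls and of the membrane behind the cornea, ran against the family. It measured 11.07, 11.73 and 12.08 in normal CD29+ cells but 7.61, 7.79 and 8.87 in normal CD29hi cells. Tumour CD29hi arrays read 12.58, 11.91, 10.90, 10.93 and 11.40. The normal CD29hi arrays were the lowest of all 24. Col8a1 fell by 3.54 ± 0.53 from CD29+ to CD29hi in normal glands (adjusted p 1.38e-05) and rose 11.0-fold in tumour CD29hi cells (log2 difference 3.46 ± 0.48, 8.09e-06). Its 2 other kept probe sets had the same direction, with 5.75 and 0.52 in the second comparison.

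Type VI collagen, which forms beaded filaments close to cells, is assembled from the products of Col6a1, Col6a2 and Col6a3, and the third gene parted from the others. Col6a1 measured 2.28, 2.85 and 3.34 in normal CD29+ cells and 8.86, 9.37 and 9.40 in normal CD29hi cells. Col6a3 measured 11.54, 10.17 and 9.65 in normal CD29+ cells and 5.87, 5.13 and 7.21 in normal CD29hi cells. The gates did not overlap for either gene, and the order was opposite. Col6a1 rose by 6.39 ± 1.08 from CD29+ to CD29hi (adjusted p 5.41e-05), and Col6a3 fell by 4.38 ± 1.18 (0.00423).

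In tumour CD29+ cells Col6a3 read 7.10, 5.82, 4.45, 3.15 and 3.19, below all normal arrays of that gate, and it fell by 5.71 ± 1.06 from normal to tumour (adjusted p 0.000156). Col6a1 rose in the same comparison by 2.58 ± 0.97 (0.0354), while Col6a2 with 1.42 ± 0.96 was not called. Within groups the chains varied together: with group means removed, r over 24 arrays was 0.882 for Col6a1 with Col6a2, 0.858 for Col6a1 with Col6a3 and 0.770 for Col6a2 with Col6a3, whereas with group means left in the last 2 were 0.173 and 0.384. Only 1 probe set for Col6a1 and 1 for Col6a3 were kept, so the split rests on these.

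Col9a2 and Col9a3, chains of the fibril-coating type IX collagen known from cartilage, rose from CD29+ to CD29hi in normal glands, while their partner Col9a1, at 3.42 ± 1.53, was not called (adjusted p 0.0743) though all 3 pools were higher in the CD29hi gate, by 2.39 to 4.02. With the letters as a replicate block Col9a1 was called there (0.00796 random, 3.64e-05 fixed). Of 6 cartilage markers Acan, Matn1 and Chad stayed under the low band on every array. Comp reached 5.95 on an array of the normal CD29hi gate, where it averaged 3.77, Matn3 averaged 3.63 there, and Sox9, which mammary epithelium also expresses, averaged 10.37 to 11.54 in every group. Their part in the result was not tested. Col9a3 measured 5.19, 5.37 and 4.91 in normal CD29+ cells and 11.35, 11.33 and 11.72 in normal CD29hi cells, and 10.38 to 13.35 in tumour CD29+ cells. It rose by 6.52 ± 0.73 in tumour CD29+ cells (adjusted p 3.22e-07) and by 3.32 ± 0.73 in tumour Lin- cells (0.001). Every one of the 5 tumours read lower in the CD29hi than the CD29+ gate, with differences from -2.65 to -0.83, but the mean difference of -1.56 ± 0.64 was not called without a replicate block. One of its 3 kept probe sets stayed near zero, at 0.14 in the tumour CD29+ comparison.

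Col9a2 was above 4 in 2 tumour arrays and in all normal CD29hi arrays, at 6.66, 7.14 and 7.71. It fell by 3.74 ± 0.33 in tumour CD29hi cells (adjusted p 2e-08). Col9a1 divided the tumours: A, B and D read 10.64, 10.63 and 8.51 in CD29+ cells, and C and E 5.66 and 6.06. It passed the threshold in the comparison of gate differences alone, at -5.21 ± 1.93 (0.0354). That call was lost without D, F, G or H (0.0634 to 0.122) and without the CD29hi array of pool F (0.0799). A second kept probe set of Col9a1 had -0.29 there, and with the mean of its kept probe sets the call was lost (0.114).

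Of the others, Col16a1, a fibril-associated collagen, fell by 2.03 ± 0.43 in tumour CD29hi cells (adjusted p 0.000797) and rose by 3.58 ± 0.43 in tumour CD29+ cells (7.96e-07). The membrane collagen Col25a1 rose by 2.29 ± 0.53 in tumour CD29+ cells (0.00137). Col8a2 rose there by 1.78 ± 0.53 (0.00906). Col13a1, another membrane collagen, exceeded 4 in pools F and H of the normal CD29hi gate alone, at 5.56 and 4.65, and fell by 1.43 ± 0.30 in tumour CD29hi cells (0.000653), where pool G, at 3.06, overlapped the tumours. Without the CD29hi array of pool F this Col13a1 difference was -0.86 (0.00614).

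The Lin- sort was then set against each gate. In normal glands 14 collagens were higher and 5 lower in CD29hi than in Lin- cells, against 17% and 23.2% of all genes, with a difference between classes not tested. Of 8 basement membrane genes 6 were higher. Of 9 fibrillar genes Col1a1, Col1a2 and Col5a3 were lower and Col11a1 was higher, at 4.01 ± 1.12 (adjusted p 0.00674). Col5a2, not called at 1.42 ± 0.56 (adjusted p 0.05), was called higher with the letters as a replicate block (0.0156 random, 0.0181 fixed). Col3a1, not called at -4.04, was called lower with the same blocks (adjusted p 0.0157 random, 0.0164 fixed). Without pool F 12 genes were called in place of 19, the losses being Col11a1 (adjusted p 0.0876), Col25a1 (0.119), Col4a2 (0.0519), Col4a5 (0.0718), Col5a3 (0.232), Col6a3 (0.0649) and Col23a1 (0.147); Col5a3 and Col23a1 were also lost without H (0.130 and 0.103). Between normal CD29+ and Lin- cells 14 collagens were called, all lower in the gate, against 3.68% of all genes called lower, with 5 of 9 fibrillar, 4 of 8 basement membrane and 5 of 16 other genes. The difference was -8.98 ± 1.14 for Col1a2 (adjusted p 1.86e-05) and -10.01 ± 1.62 for Col3a1 (0.000322). Of these calls Col1a1 and Col6a2 were lost without F (0.110 and 0.0501) or G (0.0821 and 0.0516), Col6a1 without F (0.0613) and Col12a1 without G (0.260) or H (0.297).

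In tumours 8 collagens were lower and Col23a1 higher in CD29hi than in Lin- cells, against 4.63% and 3.74% of all genes. The lower genes were Col1a1, Col1a2, Col3a1, Col5a1, Col5a2, Col6a2, Col6a3 and Col15a1, 5 of them fibrillar. The difference was -6.02 ± 1.25 for Col3a1 (adjusted p 0.00456) and -4.499 ± 0.92 for Col6a3 (0.00385). Col5a1 and Col6a2 were lost on leaving out A (0.0619 and 0.0733), B (0.0603 and 0.0750), C (0.188 and 0.135) or E (0.142 and 0.110), Col5a1 also without H (0.0539), and Col15a1 was lost without C (0.0674). With the letters as a random replicate block 5 collagens were called higher in place of 1, and with fixed terms 3. The genes added by the random block were Col4a6 (0.02), Col7a1 (0.0373), Col8a1 (0.0491) and Col18a1 (0.0495). The share of all genes called higher in these block fits is not given here.

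Between tumour CD29+ and Lin- cells Col1a2 and Col3a1 were lower in the gate, at -4.45 ± 0.89 (adjusted p 0.0441) and -6.001 ± 1.25 (0.0499), against 0.208% of all genes called lower. Tumour D bears on this count. Its Lin- array was the lowest of the 5 for Col1a1, Col1a2, Col3a1, Col5a1, Col6a1, Col6a2 and Col6a3, and its fibroblast marker mean was 4.93 in Lin- and 5.02 in CD29+ cells. Without D 10 collagens were called, all lower in the CD29+ gate, with Col6a2 at -4.81 (0.000333) and Col1a1 at -3.98 (0.00124). Leaving out any other tumour or pool left neither Col1a2 nor Col3a1 called (0.0769 to 0.393), and 13 of the 33 genes had an unadjusted p under 0.05 with all arrays in. With the letters as a random replicate block 9 were called and as fixed terms 7. The share of all genes called in these further fits, or with an unadjusted p under 0.05, is not given here. These counts are thus not set against a background. On average fibroblast markers were highest in the Lin- sort, as Col1a1, Col1a2 and Col3a1 were. The fibrillar genes Col5a1, Col5a2 and Col11a1 instead had their highest mean in normal CD29hi cells. The part of fibroblasts in the result was not tested.

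**Figure D5:**
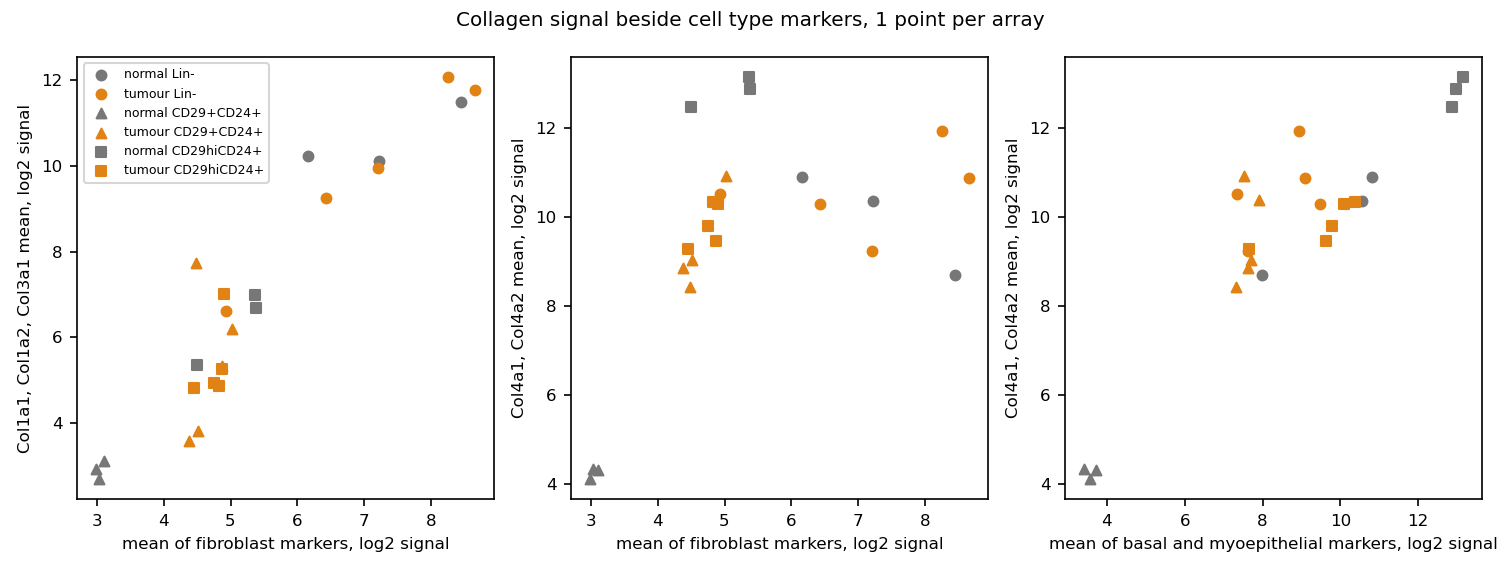
Each point is an array. The mean log2 signal of Col1a1, Col1a2 and Col3a1 is drawn against the fibroblast marker mean (left), and that of Col4a1 and Col4a2 against the fibroblast mean (centre) and the basal and myoepithelial mean (right). The fibrillar chains are highest on Lin- arrays with high fibroblast markers, while Col4a1 and Col4a2 are highest in the normal CD29hi arrays, where fibroblast markers average 4.49 to 5.38 and basal markers 12.9 to 13.2.

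In the normal CD29hi gate the fibroblast list was itself divided. Lum, Dpep1, Thy1 and Mfap5 averaged 2.97, 2.97, 2.94 and 2.30 there, at or close to the low band, whereas Pdgfra, Pdgfrb and Dcn averaged 7.04, 7.93 and 11.54. The genes most like Col1a1 over the 24 arrays, outside the collagens, were Abca8a (Pearson r 0.962), Lama2 (0.959), Loxl1 (0.950), Lum (0.950) and Thbs2 (0.935). Those most like Col4a1 were Lhfp (0.977), Adcy7 (0.967), Dpysl2 (0.958), Sparc (0.958) and Enc1 (0.952). The 5 named for Col1a1 averaged 2.48 to 3.30 in the gates of both tissues, and the 5 named for Col4a1 averaged highest in the normal CD29hi gate.

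Genes that modify, fold and anchor collagen were read from lists. Of 16 measured enzymes and chaperones of collagen hydroxylation and folding, 9 rose and 1 fell from CD29+ to CD29hi in normal glands, against 21.3% and 25.3% of all genes. Plod2, a lysyl hydroxylase, rose by 5.62 ± 0.55 and Serpinh1, the collagen chaperone HSP47, by 5.37 ± 0.49. In tumour CD29+ cells 6 of the 16 rose and 3 fell, against 16.4% and 27.1%, with Plod2 at 5.63 ± 0.49, P3h2, a prolyl hydroxylase, at 4.62 ± 0.54 and Serpinh1 at 3.87 ± 0.44. In tumour CD29hi cells 3 rose and 3 fell, against 15.6% and 22.9%. Between the tumour gates P4ha1, a catalytic chain of prolyl hydroxylase, rose by 0.996 ± 0.22 and Plod3 by 0.99 ± 0.26.

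Of 13 basement membrane partners, which are laminins, nidogens, perlecan and peroxidasin, 8 rose between the normal gates (21.3% of all genes), and 8 fell and 2 rose in tumour CD29hi cells (22.9% and 15.6% of all genes). Nid1, which links laminin to type IV collagen, was 6.26 ± 1.03 higher between the normal gates and fell by 4.63 ± 0.92 in tumour CD29hi cells. Lama3, a laminin chain of epithelia, rose by 7.78 ± 0.49 in tumour CD29+ cells. There 5 of the 13 rose and 3 fell, against 16.4% and 27.1% of all genes. Of 8 receptors 3 rose between the normal gates, against 21.3% of all genes, among them the integrin chain Itga1 at 4.79 ± 0.41, which fell by 4.64 ± 0.37 in tumour CD29hi cells. The matrix receptor Ddr1 rose in all 3 tumour comparisons, by 0.58 ± 0.11 in CD29hi, 0.33 ± 0.11 in CD29+ and 0.42 ± 0.11 in Lin- cells.

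Of 4 lysyl oxidases, which cross-link fibrils, Loxl3 and Lox rose between the normal gates, at 4.33 ± 0.52 and 2.83 ± 0.80, against 21.3% of all genes. Only Loxl3 fell in tumour CD29hi cells, by 4.26 ± 0.47, against 22.9% of all genes. In tumour CD29hi cells 2 of 4 procollagen processing genes and 3 of 5 export genes fell, against 22.9% of all genes. The processing gene Adamts3 fell in all 3 tumour comparisons, with -4.03 ± 0.35 in CD29hi cells. The export gene Sec24d fell by 1.77 ± 0.26 in tumour CD29hi cells. Among 6 collagen-degrading proteases 3 rose and 1 fell in tumour CD29hi cells, against 15.6% and 22.9% of all genes. In tumour CD29+ cells 2 rose, against 16.4%, and in tumour Lin- cells 2 rose, against 13.9%. Mmp13 rose by 7.99 ± 1.10, 6.77 ± 1.10 and 5.91 ± 1.10 in tumour CD29hi, CD29+ and Lin- cells. Mmp2 fell by 3.42 ± 0.46 in tumour CD29hi cells and rose by 6.54 ± 0.46 in tumour CD29+ cells. Mmp9 was 4.56 ± 0.88 higher in the CD29hi gate of tumours.

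The members left over were few. Col4a4, Col6a4, Col20a1 and Col24a1 passed the filter but were called in no comparison, with differences from -0.42 to 0.43. A second kept probe set of Col6a4 fell by 3.79 in tumour CD29hi cells, so for this gene the choice of probe set decides the call. A second probe set of Col12a1 had the opposite sign in tumour CD29+ cells, at -0.32. It also did so for normal CD29+ minus Lin- cells, at 0.14 against -3.47. Col2a1, Col4a3, Col6a5, Col10a1, Col11a2, Col19a1, Col22a1 and Col26a1 did not pass the filter, with values from 1.83 to 3.41.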

How the data were processed

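Sorted mammary populations of 5 tumours and 3 normal gland pools were measured on 24 Affymetrix arrays. The deposited table holds log2 signals of 45101 probe sets. The authors' processing notes name RMA, GCRMA and Partek, with no role or version stated. How low signals were treated is thus unknown, and the size of a difference from the low band is uncertain. Each gene was read from its kept probe set of highest mean. Of the probe sets 34945 carry 1 gene, 932 several and 9160 none, 64 are controls, and the last 3 kinds were left out.

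A probe set was kept if 3 or more arrays exceeded 2.83, the 40th percentile. The 13485 genes were fitted in limma 3.58.1 (R 4.3.3) with 6 group means, eBayes with a trend and 10 contrasts, with Benjamini-Hochberg adjustment over all genes at 0.05, after the code was tested on simulated data. Figures and tables used Python 3.11.15, pandas 2.3.3 and matplotlib 3.10.9. SE is the moderated standard error of limma, and SD is over arrays. The number of arrays limits the precision.

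Letters in the labels give the tumour or pool, so arrays of 1 letter share their source. For 2 arrays of the last pool the title lacks a letter; H was assigned because each other letter was complete. Deviations from group means of arrays with the same letter had a median correlation of 0.578 in tumours (0.359 to 0.738 over 15 pairs) and 0.142 in pools (-0.038 to 0.319 over 9 pairs), against -0.167 and -0.0705 for different letters. Fits with the letter as a replicate block and 17 further alternatives were run.

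Members, gene lists and marker lists were chosen with earlier results of these data known. Every member called in a comparison was named with values. Of the called pathway genes at most 4 per list and comparison were named, taken from those of largest difference, and often fewer. A pathway gene not named may thus have been called. The 5 genes named beside Col1a1 and Col4a1 had the highest correlation with them over the 24 arrays. Promoters came from RefSeq (GRCm38.p6).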

Additional observations from a re-analysis of the deposited data

Results flagged for a closer look

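In 5 of 99 groups of tumour arrays the highest or lowest array stood far from the others by Dixon's criterion, which chance meets in about 1 group in 20. These were Col1a1 in CD29+ cells of tumour C (4.73), Col5a1 in CD29+ cells of tumour D (5.19), Col6a4 in CD29hi cells of tumour E (3.33), Col15a1 in CD29+ cells of tumour A (3.22, below the others) and Col27a1 in Lin- cells of tumour D (6.05).

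For 24 genes the gate difference, CD29hi minus CD29+, itself differed between tumours and normal glands in limma, with tumour minus normal given in log2. Col8a1 had 4.54, where the normal gates ran the other way. Among fibrillar genes it was -3.80 for Col1a2, -5.99 for Col3a1, -4.00 for Col5a1, -9.92 for Col5a2, -6.22 for Col11a1 and -1.64 for Col27a1. Among basement membrane genes it was -8.21 for Col4a1, -8.31 for Col4a2, -2.81 for Col4a5, -2.53 for Col4a6, -5.32 for Col7a1, -2.0045 for Col15a1 and -6.31 for Col18a1. Among the others it was -5.02 for Col6a1, -4.69 for Col6a2, -5.21 for Col9a1, -4.20 for Col9a2, -7.87 for Col9a3, -4.28 for Col12a1, -1.46 for Col13a1, -8.58 for Col14a1, -5.61 for Col16a1 and -3.27 for Col25a1.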

How the results depend on the processing

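Of 134 calls over the 10 comparisons 86 were kept under every alternative run, 48 were lost in at least 1 and 39 of these on leaving out a tumour, a pool or an array. The comparison of tumour CD29+ with Lin- cells was the least stable. Its 2 calls became 6 with a filter at the 60th percentile, 9 with the letters as a random replicate block, 7 as fixed terms, 1 after quantile normalisation and 1 with the actin covariate. It became 0 with no filter, without the trend or with only the groups compared, where limma gave Col1a2 an adjusted p of 0.0618, 0.052 and 0.834, against 13 genes with an unadjusted p under 0.05 with all arrays. Leaving out each tumour or pool gave 0 to 10. Between the tumour gates 2 calls became 4 with a random replicate block and 5 with fixed terms, and 1 to 3 on leaving out each tumour or pool. The same range was 5 to 10 around 9 for tumour against normal Lin- cells and 12 to 21 around 19 for normal CD29hi against Lin- cells. For tumour CD29hi against Lin- cells the random replicate block raised the genes called higher from 1 to 5 and fixed terms to 3. The block moved the total number of calls by more than 1.5 times only between tumour CD29+ and Lin- cells and between the tumour gates. Shares of all genes called under these alternatives are not given, so these counts have no background beside them.

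Col6a4 turned direction, from a value near 0 to -3.79 in tumour against normal CD29hi cells and -3.84 in the comparison of gate differences with the 60th percentile filter, and to -1.86 and -1.89 with the mean of its probe sets, since its other probe set then counted. The causes of the other changes were not tested. Low signal limits differences from the normal CD29+ gate for genes in or close to the low band there. Col4a5, Col4a6, Col6a3 and Col8a1 lay well over the band in that gate. The 3 pools limit the precision of the normal means.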
